A study of Homo sapiens with 6 samples.

Results

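The subunits of the respiratory chain that are encoded in the nucleus were examined as 1 group of genes in DU145, a human prostate cancer cell line that carries the HGF receptor c-MET. Members were the probe sets annotated with exactly 1 gene symbol that starts with NDUFA, NDUFB, NDUFC, NDUFS or NDUFV (complex I), SDHA to SDHD (complex II), UQCR (complex III), COX4 to COX8 (complex IV) or ATP5 (ATP synthase). Assembly factors, pseudogenes and non-coding neighbour genes were left out. The rule took 151 of 54675 probe sets, which represent 77 of 19775 genes. Of these genes 33 belong to complex I, 3 to complex II, 6 to complex III, 17 to complex IV and 18 to ATP synthase. Probe sets with several symbols, 18 in all, were not used, and subunits that the rule did not reach were not analysed here. The rule uses gene symbols and no measured value, although the group was proposed with earlier results of these data known.

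Cells were grown overnight in RPMI with serum, kept until the next day in medium with 5% dextran-charcoal treated serum, and then given hepatocyte growth factor (HGF) at 25 ng/ml or vehicle alone. RNA was taken after 2, 8 and 24 h and read on Affymetrix U133plus2.0 arrays, which measure a transcript by groups of short probes called probe sets. The 6 groups were vehicle at 2 h, HGF at 2 h, vehicle at 8 h, HGF at 8 h, vehicle at 24 h and HGF at 24 h, each with 1 array of this single cell line. A difference of HGF from its vehicle control therefore has no replicate error and no p-value, and the vehicle arrays of the 3 times give the only view of how far 2 arrays differ without HGF. Values below are signals on a scale where the mean of every array is 150. For ratios, signals under a floor of 30 were raised to 30.

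The respiratory chain passes electrons from NADH (complex I) and succinate (complex II) through ubiquinone, complex III and cytochrome c to oxygen at complex IV. Complexes I, III and IV pump protons across the inner mitochondrial membrane, and ATP synthase makes ATP from their return. Each complex except complex II is assembled from proteins of both the nuclear and the mitochondrial genome, so that subunit genes on many chromosomes have to supply 1 machine. Factors of the ETS family such as GABPA, and NRF1, are known to bind the promoters of many of the nuclear genes.

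All 6 epithelial marker genes examined (KRT8, KRT18, KRT19, EPCAM, CDH1 and MET) were above the floor, while 0 of 4 leukocyte and 0 of 3 endothelial markers were. Of 3 fibroblast markers COL1A1 was above it, with a summed signal of the list between 73.5 and 122. The luminal prostate marker KLK3 was above the floor too, with a signal of 39.5 to 110. Control probe sets gave the signal at the 3' end over that at the 5' end, a sign of RNA integrity. For ACTB it lay between 1.13 and 1.17 at 2 h, 1.31 and 1.36 at 8 h, and 1.63 and 1.71 at 24 h. For GAPDH it lay between 0.92 and 1.01 over all arrays. The study selected its samples by RNA integrity number. RNA spikes added before labelling had their lowest median signal, 115, in the vehicle array of 8 h, against 159.8 to 350.7 in the other arrays. The part of these differences in the results below was not tested.

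Of the 77 member genes 70 exceeded the floor on 1 or more arrays, and 7 did not. Among those 7 were 6 isoforms of complex IV subunits that other tissues use in place of the common form. COX7A1, the isoform of heart and skeletal muscle, read at most 1.7 in any array, and COX6A2, its counterpart for subunit 6A, at most 14.9. COX4I2, a form known from lung, reached 20.3, the testis isoforms COX6B2 and COX8C reached 20.5 and 13.7, and COX7B2 reached 13.3. Their common counterparts were above the floor in all 6 arrays: COX4I1 at 3665 to 5050, COX6A1 at 3209 to 4625, COX6B1 at 1494 to 2547, COX7A2 at 2008 to 3466 and COX8A at 2691 to 3838 on the brightest probe set of each. DU145 cells thus had signal for the common form of each of these pairs and none above the floor for the tissue form, with or without HGF. The remaining gene under the floor, ATP5MF, was represented by 1 probe set that read at most 5.8.

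Promoter sequences of 4 members are shown here because these genes had the lowest and the highest ratios of HGF over vehicle at 8 h on their brightest probe sets, a choice made after the values were seen. Each is the stretch of 250 bases before the gene start, from RefSeq on GRCh38.p14, in the direction of transcription. A single start was taken per gene, and whether DU145 cells use that start was not tested. NDUFA5 lies on the minus strand at chr7:123601652-123601901, NDUFS4 on the plus strand at chr5:53560389-53560638, NDUFA13 on the plus strand at chr19:19515975-19516224 and NDUFS7 on the plus strand at chr19:1383657-1383906. Capitals mark matches on either strand to CCGGAAG, the core of ETS factors such as GABPA, or to GCGCATG, one side of the NRF1 palindrome (CATGCGC on the opposite strand).
NDUFA5: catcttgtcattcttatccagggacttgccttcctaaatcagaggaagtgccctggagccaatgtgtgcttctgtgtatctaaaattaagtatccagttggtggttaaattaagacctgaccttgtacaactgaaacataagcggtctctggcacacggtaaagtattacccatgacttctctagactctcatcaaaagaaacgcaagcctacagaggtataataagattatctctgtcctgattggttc
NDUFS4: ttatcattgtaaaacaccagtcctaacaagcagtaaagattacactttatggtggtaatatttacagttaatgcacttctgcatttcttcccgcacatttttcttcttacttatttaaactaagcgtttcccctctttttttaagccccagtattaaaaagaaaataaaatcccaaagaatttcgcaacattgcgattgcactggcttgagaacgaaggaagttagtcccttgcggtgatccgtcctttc
NDUFA13: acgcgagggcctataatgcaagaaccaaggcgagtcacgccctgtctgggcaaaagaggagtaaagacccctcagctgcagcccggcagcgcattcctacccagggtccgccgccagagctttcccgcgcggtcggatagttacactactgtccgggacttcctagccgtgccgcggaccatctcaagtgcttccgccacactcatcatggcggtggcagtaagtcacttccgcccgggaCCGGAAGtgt
NDUFS7: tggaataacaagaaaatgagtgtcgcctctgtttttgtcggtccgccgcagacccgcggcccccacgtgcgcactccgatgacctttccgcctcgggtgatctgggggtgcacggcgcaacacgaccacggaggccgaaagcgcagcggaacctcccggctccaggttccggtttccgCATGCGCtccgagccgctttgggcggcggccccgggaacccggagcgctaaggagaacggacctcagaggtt
The 2 genes that read lower with HGF had 41.6% and 36.8% of G and C in these bases, and 3 and 7 CpG dinucleotides. The 2 that read higher had 61.6% and 65.6%, with 21 and 30. NDUFA13 held the ETS letters close to its start, and NDUFS7 the NRF1 letters.

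At 8 h the subunits of complex I that differed most between the arrays did so in both directions. NDUFA5, a small accessory subunit of the arm that reaches into the matrix, read 302 with vehicle and 247 with HGF at 2 h, 378 and 134 at 8 h, and 195 and 232 at 24 h. Its HGF array of 8 h was the lowest of the 6 and its vehicle array of 8 h the highest. The log2 ratio of HGF over vehicle on this probe set was -0.29 at 2 h, -1.49 at 8 h and 0.25 at 24 h. The other probe set of NDUFA5 was under the floor in every array and entered the mean as 0, which made the ratio of the gene -0.75 at 8 h. In RNA of a whole culture, fewer cells with a transcript and less of it per cell cannot be told apart. NDUFS4, an accessory subunit of the same arm in which inherited mutations cause Leigh syndrome, read 368 and 280 at 2 h, 384 and 205 at 8 h, and 302 and 353 at 24 h. NDUFB3, an accessory subunit of the membrane arm, read 641 and 563, then 641 and 375, then 697 and 748. For both genes the HGF array of 8 h was again the lowest of the 6, and at 24 h HGF was above vehicle.

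NDUFA13, a membrane-spanning accessory subunit also known as GRIM-19, had the opposite order. It read 1383 with vehicle and 1237 with HGF at 2 h, 1084 and 2150 at 8 h, and 1743 and 1555 at 24 h, with log2 ratios of -0.16, 0.99 and -0.16. NDUFS7, which holds the last iron-sulphur cluster before ubiquinone, read 357 and 331, then 270 and 484, then 373 and 332, and NDUFV3 read 592 and 451, then 479 and 843, then 725 and 576. In these 3 genes the HGF array of 8 h was the highest of the 6 and the vehicle array of 8 h the lowest or, for NDUFV3, the lowest but one. NDUFA11 followed them with 1287 for vehicle and 2161 for HGF at 8 h.

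**Figure D1:**
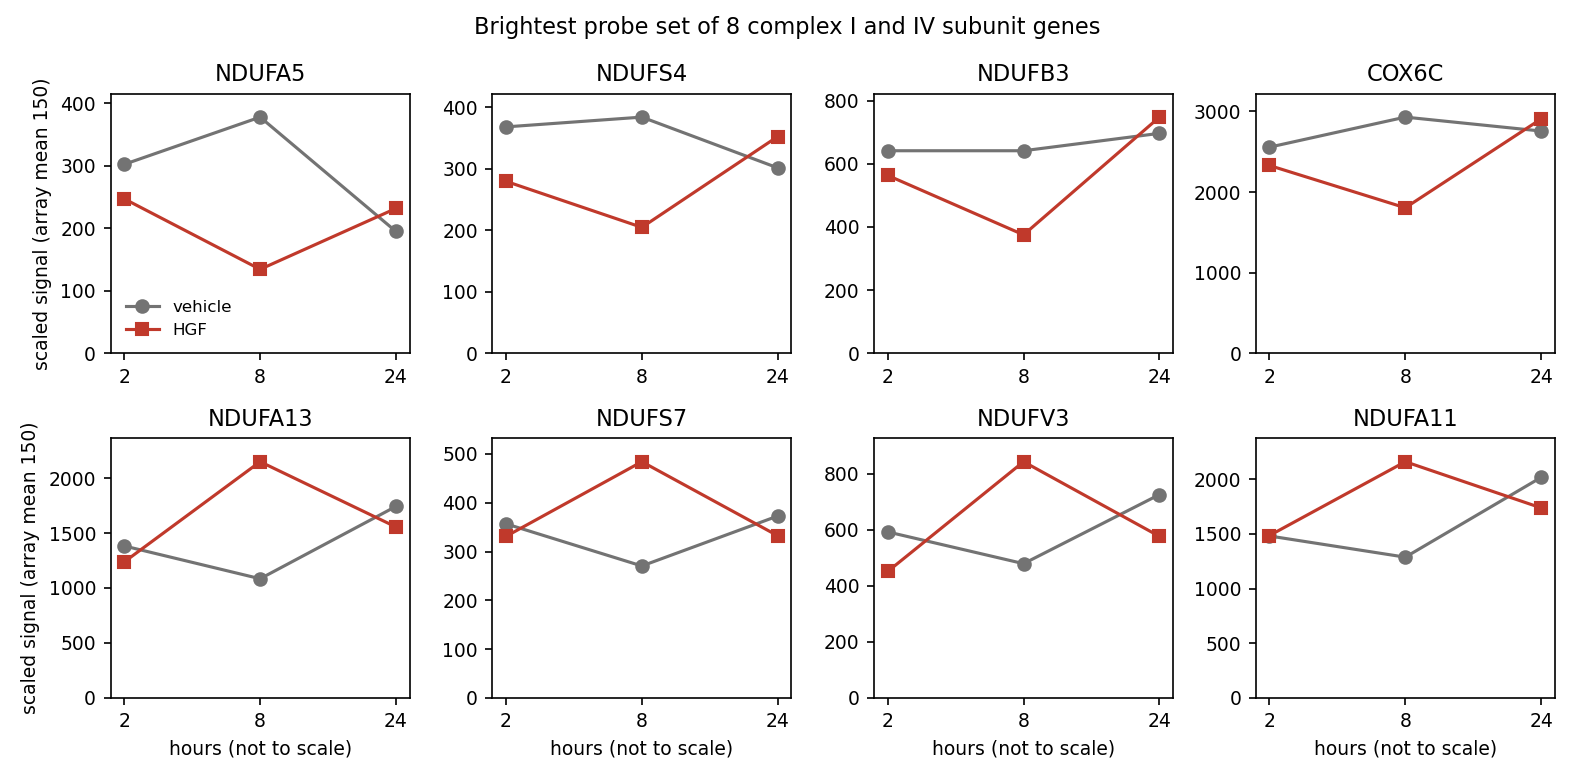
Scaled signal (vertical axis, array mean 150, from 0) of the brightest probe set of 8 subunit genes at 2, 8 and 24 h, with vehicle arrays as grey circles and HGF arrays as red squares, 1 array per point and no error bars. In the upper row HGF lies below vehicle at 8 h (NDUFA5 134 against 378), in the lower row above it (NDUFA13 2150 against 1084), and at 24 h the 2 arrays are closer together in all 8 genes.

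Genes were called higher or lower by the criterion that the study used to select genes at 24 h, applied here at each time. It asks for a 2-fold ratio or more on any 1 of its probe sets and a log2 ratio of 0.50 or more, the same way, as their mean. At 8 h 1 of the 70 members was lower by this rule, NDUFA5, and 0 were higher. Over all 10791 genes above the floor, 14.6% were lower and 4.93% higher at that time. The members were brighter than this comparison set, with a median signal of 1799 against 149.6, and the dimmest member had 160.7. Shares and spreads of all genes, here and below, were not matched for signal. Whether other genes of similar signal would give the same shares as the members was not tested. After quantile normalization, which gives all arrays the same distribution, 1 member was lower, NDUFA5 again, and 2 were higher, ATP5F1D and UQCR11, against 9.31% and 10.1% of all genes. At 2 h 0 members were higher or lower, against 0.769% and 0.102% of all genes. At 24 h 0 members were higher or lower, against 1.91% and 1.02%.

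The members as a whole had a median log2 ratio of 0.22 at 8 h, against -0.02 for all genes, and 50 of the 70 (71.4%) were above 0, against 45.3% of all genes. After quantile normalization these medians were 0.15 and 0.06. The middle 50% of the members spanned 0.46 on the log2 scale, and that of all genes 0.70. At 2 h the median was -0.07 against -0.02, and at 24 h -0.04 against 0.01, with 24.3% and 34.3% of the members above 0, against 38.4% and 51.2% of all genes. In 29 members the ratio was below 0 at 2 h, above 0 at 8 h and below 0 at 24 h. The share of all genes with this order was not counted, so whether it is particular to the members was not tested.

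**Figure D2:**
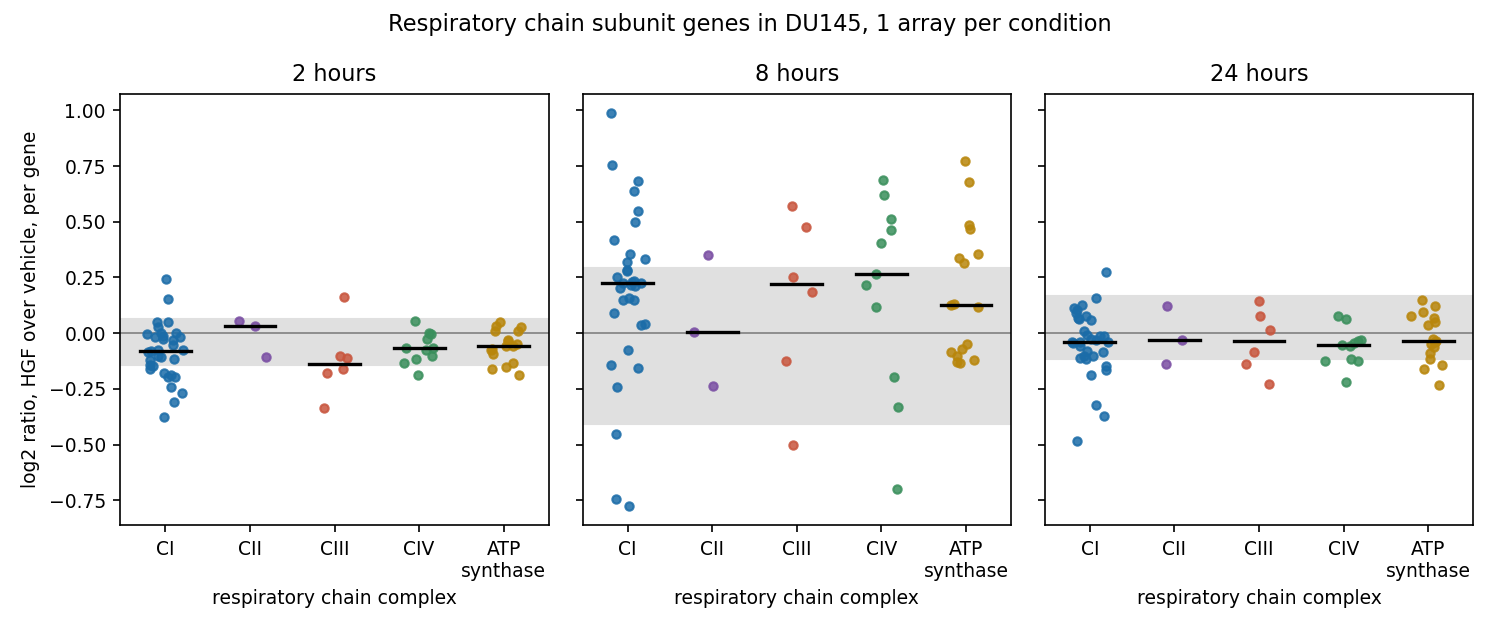
Log2 ratio of HGF over vehicle for each of the 70 member genes above the floor (points, spread sideways within a complex for visibility), by complex and time. Black bars are medians of a complex, and the grey band holds the middle 50% of all 10791 genes. Points lie close to 0 at 2 and 24 h and spread from -0.77 to 0.99 at 8 h, with 50 of 70 above 0.

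Many members were low in the vehicle array of 8 h. It was the lowest of the 6 arrays for 35 of the 70 members on the brightest probe set, while over all genes it was the lowest for 15.3%. Without HGF, the median of the members differed by 0.21 between the vehicle arrays of 24 and 8 h, about as much as between HGF and vehicle at 8 h, while all genes had a median of -0.08 there. Between the vehicle arrays of 8 and 2 h it was -0.07, and between those of 24 and 2 h 0.13. With vehicle at 2 and 24 h averaged as the reference instead, the HGF array of 8 h had a member median of 0.05, and 0 members passed the rule as lower or higher. NDUFA5 had a gene ratio of -0.43 at 8 h on that reference. At 24 h the choice of reference turned the direction: on the brightest probe set 32.9% of the members were above 0 against the vehicle array of 24 h (52.0% of all genes), and 80.0% were above 0 against the mean of the other 2 vehicle arrays (40.8% of all genes). At 8 h the brightest probe set of NDUFA5 was at -0.85 on the averaged reference, with NDUFS4 at -0.70, NDUFB3 at -0.83, NDUFA13 at 0.47 and NDUFS7 at 0.41.

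The HGF array of 8 h lay outside the range of all 3 vehicle arrays for 47 members, above it for 32 and below it for 15. Over all genes these shares were 36.5% and 33.0%. At 2 h 25 of the 70 members were below all 3 vehicle arrays and 3 were above, against 18.8% and 18.1% of all genes. At 24 h 3 were below and 14 above, against 24.3% and 23.8%.

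A shared difference between HGF and vehicle over the 3 times was tested with limma, with the time as a block, so that arrays of different times stood in for replicates. After Benjamini-Hochberg adjustment over 10002 genes 0 members passed 0.05, and 0% of all genes did. At an unadjusted p under 0.05, 0 of 70 members and 4.03% of all genes passed. NDUFA9, an accessory subunit at the joint of the 2 arms of complex I, had the smallest p of the members. It read 584 with vehicle and 691 with HGF at 2 h, 581 and 670 at 8 h, and 592 and 717 at 24 h, so that each HGF array was above each vehicle array. Its log2 difference was 0.24 ± 0.13 (SE), higher in 3 of 3 pairs, with an adjusted p of 0.912 in limma. NDUFB3, COX6C, NDUFA5 and NDUFS4 came next, each lower in 2 of 3 pairs, with the same adjusted p. Ratios were above 0 at all 3 times in 3 members, against 11.1% of all genes, and below 0 at all 3 times in 6 members, against 13.0%. Under quantile normalization these were 4 and 11 members, against 12.7% and 11.1% of all genes. NDUFA9 and NDUFB8 were in the first group, and UQCR10, NDUFB5, COX7C, ATP5PB and ATP5PO in the second, under both.

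In complex I the median log2 ratio at 8 h was 0.22, with 26 of 33 genes above 0. Of the subunits that form the catalytic core, shared with the bacterial enzyme, 5 were measured, and they had a median of 0.28. On the brightest probe set NDUFV1, which binds NADH and FMN, read 767 with vehicle and 1129 with HGF at 8 h, and NDUFS3 read 677 and 865. Against the vehicle arrays of 2 and 24 h their log2 ratios were 0.35 and 0.04. NDUFV2 and NDUFS1, both carriers of iron-sulphur clusters, were closer together, at 1054 and 1176 and at 468 and 539. The 28 accessory subunits had a median of 0.22 and held both ends of the range. Accessory subunits of complex I were 3 of the 4 lowest members of the whole group at 2 h and the 3 lowest at 24 h. NDUFA3 had ratios of -0.38 and -0.48, NDUFB10 -0.31 and -0.32, and NDUFB11 -0.27 and -0.37. These 3 genes read higher with HGF at 8 h, at 0.76, 0.33 and 0.50, and their vehicle array of 24 h was the highest vehicle array in each. Against the other 2 vehicle arrays NDUFA3 turned to -0.026 at 8 h and 0.27 at 24 h and NDUFB10 to 0.016 at 24 h, while NDUFB11 was at 0.35 at 8 h and -0.27 at 24 h.

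Complex II, succinate dehydrogenase, was represented by 3 genes. SDHA, the flavoprotein that oxidises succinate, read 1266 and 1177 at 2 h, 1135 and 1448 at 8 h, and 1473 and 1339 at 24 h. SDHD, a membrane anchor, had the opposite order at 8 h, with 989 for vehicle and 714 for HGF. Against the other 2 vehicle arrays SDHA was at 0.08 at 8 h and SDHD at -0.36. SDHC, the other membrane anchor, had 7 probe sets, and they did not give 1 answer. The probe set 215088_s_at read 587 with vehicle and 849 with HGF at 2 h, 622 and 1363 at 8 h, and 632 and 918 at 24 h, so that all 3 HGF arrays were above all 3 vehicle arrays. Its log2 ratios were 0.53, 1.13 and 0.54. The brightest, 210131_x_at, read 1046 and 980, then 1021 and 1265, then 1036 and 921, with ratios of -0.09, 0.31 and -0.17. The dim 238191_at had a ratio of -1.03 at 8 h, from 88.6 to 43.3. The mean over all 7 was 0.00 at 8 h, so SDHC did not pass the rule in either direction.

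**Figure D3:**
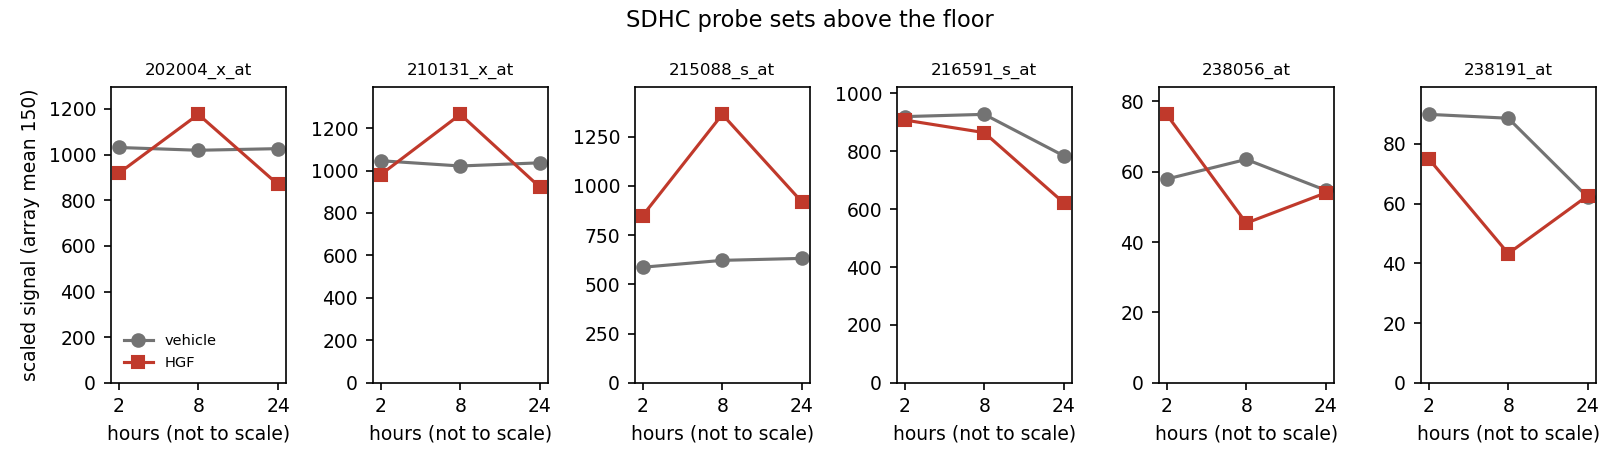
Scaled signal (vertical axis, array mean 150, from 0) of the 6 SDHC probe sets above the floor at 2, 8 and 24 h, vehicle as grey circles and HGF as red squares, 1 array per point. HGF lies above vehicle at all 3 times in 215088_s_at and below it at 8 h in 216591_s_at, 238056_at and 238191_at. Panels have separate vertical scales.

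Other members had probe sets that disagreed too. Of 25 members with at least 2 probe sets above the floor, 10 had probe sets of opposite sign at 8 h. In 3 of them, SDHC, NDUFC1 and COX4I1, the opposite ratios were both over 0.25 in size. For NDUFC1 the bright probe set read 1689 and 2713 and the dim one 43.4 and 33.1 at 8 h. For COX4I1 the low ratio came from a probe set close to the floor.

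In complex III, which passes electrons from ubiquinol to cytochrome c, 4 of 6 genes had ratios above 0 at 8 h, with a median of 0.22. UQCRC1, a core protein on the matrix side, read 1130 and 897 at 2 h, 792 and 1175 at 8 h, and 1095 and 1106 at 24 h. Its HGF array was thus below vehicle at 2 h, by -0.33 on the log2 scale, and above it at 8 h. Against the other 2 vehicle arrays UQCRC1 was at -0.05 at 2 h and 0.08 at 8 h. UQCRC2, the other core protein, had a ratio of 0.18 at 8 h. UQCRB, a small subunit near the site where ubiquinone binds, read 2063 and 1812, then 2202 and 1545, then 1832 and 1991, and its HGF array of 8 h was the lowest of the 6. UQCR11 had ratios of 0.16, 0.47 and -0.23. UQCR11 passed the rule at 8 h under quantile normalization, through a dim probe set that read 46.4 with vehicle and 75.3 with HGF.

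Complex IV, cytochrome c oxidase, had 11 genes above the floor, of which 8 had ratios above 0 at 8 h, with a median of 0.27. COX6B1, which faces the intermembrane space, read 1927 and 1840 at 2 h, 1494 and 2403 at 8 h, and 2547 and 2339 at 24 h. COX7A2 read 2008 and 3086 at 8 h and COX8A 2691 and 3838. COX5A and COX5B, which both lie on the matrix side of the enzyme, had ratios of 0.27 and 0.40. On their brightest probe sets these were 0.56 and 0.57, since the mean of COX5A includes a dim probe set at -0.02. COX6C read 2556 and 2329, then 2929 and 1804, then 2756 and 2907, and COX7B read 1205 and 927, then 1044 and 660, then 1313 and 1434. Both were lowest of the 6 in the HGF array of 8 h and above vehicle at 24 h. Ratios within this complex ran from -0.70 for COX6C to 0.69 for COX6B1. The HGF array of 8 h lay inside the range of the vehicle arrays for COX6B1, whose ratio was 0.12 against the other 2 vehicle arrays, and below that range for COX6C. COX7A2 lay inside its range too, at 0.02 against the other 2 vehicle arrays.

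For ATP synthase the median of 17 genes at 8 h was 0.13, or 0.04 under quantile normalization, with 10 genes above 0. The ring of c subunits, which turns as protons pass, is encoded by 3 genes for the same mature protein. Their brightest probe sets differed by similar amounts at 8 h: ATP5MC1 read 946 and 1515, ATP5MC2 1628 and 2601, and ATP5MC3 1651 and 2630. These are log2 ratios of 0.67 to 0.68, and over all probe sets of each gene 0.34 to 0.68. Against the vehicle arrays of 2 and 24 h they were 0.20, 0.16 and 0.34. In the catalytic head, ATP5F1A and ATP5F1B, the alpha and beta subunits, had ratios of 0.12 and 0.35. ATP5F1C, the gamma subunit of the central shaft, was at -0.10 and ATP5F1E, the epsilon subunit, at -0.13. The means of ATP5F1A and ATP5F1E include a probe set under the floor, and their brightest probe sets were at 0.24 and -0.26. ATP5F1D, the delta subunit, read 377 and 358 at 2 h, 395 and 615 at 8 h, and 446 and 434 at 24 h, and had the second highest gene ratio of the whole group, 0.77. The 4 genes of the peripheral stalk, which holds the head still, lay between -0.12 and 0.13, or -0.24 and 0.26 on the brightest probe set. ATP5IF1, the inhibitor that stops the enzyme from running backwards, was at -0.13, with 0.13 on its brightest probe set.

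Over all members, 18 of 70 were higher and 6 were lower by at least 0.5 on the log2 scale at 8 h on the brightest probe set. The 6 were NDUFA5, NDUFS4, NDUFB3, COX6C, COX7B and UQCRB, from complexes I, III and IV. Over all genes 21.98% were higher and 28.0% lower by that size. Against the other 2 vehicle arrays 1 member was higher at 8 h, ATP5F1D, and 5 were lower, the same genes without UQCRB, with 15.6% and 18.6% of all genes. At 2 and 24 h 0 members reached that size in either direction against the vehicle array of the same time.

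The promoter window of each gene, 250 bases before its start and 50 after it, was found in RefSeq for 66 of the 77 members. Other starts of the same gene were not covered. Their median content of G and C was 61.2%, against 65.7% for the 8913 genes above the floor that had a window and 58.3% for all 27305 windows. The letters GCGCATG were present on either strand in 13 members (19.7%), against 8.00% of the windows of genes above the floor and 4.67% of all windows. CCGGAAG was present in 18 members (27.3%), against 20.7% and 10.7%. TATAAA was present in 7 members (10.6%), against 5.05% and 12.0%. The median ratio at 8 h was 0.28 in members with GCGCATG and 0.26 in those without, and 0.25 and 0.28 for CCGGAAG, on the brightest probe set.

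Across the 62 members above the floor with a window, the ratio at 8 h and the content of G and C had a Pearson r of 0.34 and a Spearman rho of 0.18. These are values across genes read from the same 2 arrays and not from independent samples, and the members of low GC with the lowest ratios, NDUFA5, NDUFS4 and COX7B, were few. COX7A2 and NDUFC1, at 37.0% and 42.7%, had ratios of 0.62 and 0.68. COX6C and UQCRB, with ratios of -0.70 and -0.51, had no window and are missing from this relation. So are NDUFB9, ATP5F1D and ATP5MC3, at 0.64, 0.64 and 0.67. Over all 8913 genes both coefficients were 0.13. Chromosome 19 holds 9 members above the floor: NDUFA3, NDUFA7, NDUFA11, NDUFA13, NDUFB7, NDUFS7, UQCR11, COX6B1 and ATP5F1D. All 9 had ratios above 0 at 8 h, from 0.25 to 0.99, with a median of 0.69, and all 9 were below 0 at 24 h on the brightest probe set. Of all 731 genes of that chromosome, 70.5% were above 0 at 8 h with a median of 0.41, while genes of the other chromosomes had a median of -0.03. At 24 h 38.9% of the genes of chromosome 19 were above 0. Against the other 2 vehicle arrays 7 of the 9 members were above 0 at 8 h, with a median of 0.25, and at 24 h the direction turned, with 9 of 9 above 0 and a median of 0.27. The 61 members on other chromosomes had, against the vehicle array of 8 h, a median of 0.24, with 46 of them above 0.

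**Figure D4:**
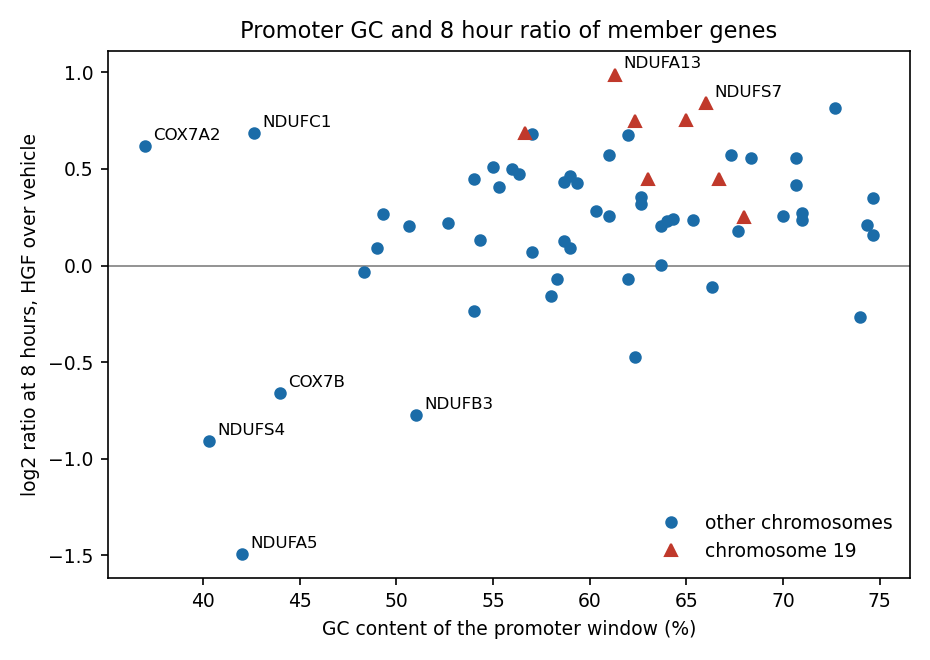
Content of G and C in the promoter window (horizontal axis, percent) and log2 ratio of HGF over vehicle at 8 h on the brightest probe set (vertical axis) for 62 member genes. Red triangles are genes on chromosome 19 and blue circles those on other chromosomes. The triangles lie between 0.25 and 0.99, and NDUFA5, NDUFS4 and COX7B are at the lower left, while COX7A2 and NDUFC1 at similar GC lie above 0. Members without a window, such as COX6C, UQCRB, NDUFB9, ATP5MC3 and ATP5F1D of chromosome 19, are not shown.

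The mitochondrial genome encodes the remaining subunits of complexes I, III and IV and of ATP synthase. Of its genes 7 had probe sets with 1 symbol (ND2, ND4, ND6, COX1, COX2, COX3 and ATP6). In these genes HGF was below vehicle in 7 of 7 at 2 h and in 7 of 7 at 8 h, with a median log2 ratio of -0.31 at both times, and under quantile normalization -0.29 and -0.34. ND2, a proton-pumping subunit of complex I, read 6489 and 4041 at 2 h, 6805 and 2803 at 8 h, and 6200 and 6025 at 24 h. COX1, the catalytic subunit of complex IV, read 9375 and 7446, then 8446 and 7215, then 9286 and 8075, so that each HGF array was below each vehicle array. By the rule 2 of the 7 were lower at 8 h, ND2 and ND6, and under quantile normalization 1, ND2. Of all genes 14.6% were lower, and 9.31% under quantile normalization. ND6 was under the floor in the HGF array of 8 h. At 24 h the median was -0.04, and under quantile normalization it changed sign to 0.16.

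Other genes of the pathway were described from lists of known members. For comparison, 4.93% of all genes were higher and 14.6% lower by the rule at 8 h, and 10.1% and 9.31% under quantile normalization. At 8 h 46 assembly factors had a median of -0.02, with 2 higher and 4 lower by the rule, and under quantile normalization 0.07, with 3 higher and 2 lower. UQCC3, an assembly factor of complex III, read 131 and 275, and LYRM7, another one, 234 and 42.3. The vehicle arrays of UQCC3 read 223 at 2 h and 275 at 24 h, so its HGF array of 8 h was not above their range. Those of LYRM7 read 166 and 106, and its HGF array of 8 h was below all of them. The 16 genes of electron carriers and their makers had a median of 0.07 with 0 higher and 0 lower, and 0.23 with 1 higher and 0 lower under quantile normalization. CYC1, the cytochrome c1 of complex III, whose symbol lies outside the rule for members, read 1442 and 2620. The 16 genes of the citric acid cycle and pyruvate dehydrogenase had a median of 0.29, with OGDH higher and SUCLA2 lower, and 0.38 with 2 higher and 1 lower under quantile normalization. Citrate synthase (CS) read 825 and 1538, and SUCLA2 463 and 162. The 75 mitochondrial ribosomal proteins had a median of 0.19, with 4 higher and 3 lower, or 7 and 3 under quantile normalization, which left the median at 0.19.

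Of 15 regulators of mitochondrial gene expression 1 was higher and 2 were lower at 8 h, and 2 and 1 under quantile normalization. Over all genes 4.93% were higher and 14.6% lower, and 10.1% and 9.31% under quantile normalization. ESRRA, the estrogen-related receptor alpha, read 140 with vehicle and 288 with HGF. GABPA, the ETS factor whose core letters were searched above, read 119 and 45.7, and 66.6 and 116 at 24 h. TFAM, which packages mitochondrial DNA and starts its transcription, read 374 and 433 at 2 h, 452 and 216 at 8 h, and 200 and 246 at 24 h. The vehicle arrays of TFAM thus ranged from 200 to 452, and the HGF array of 8 h lay inside that range. NRF1 had a ratio of 0.15. Outside the mitochondrion, 57 cytosolic ribosomal proteins had a median of 0.09 and 33 proteasome subunits 0.18 at 8 h. Under quantile normalization these medians were 0.0022 and 0.13, against 0.06 for all genes.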

How the data were processed

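RNA of DU145 cells was hybridised to 6 Affymetrix U133plus2.0 arrays, 1 per condition as labelled. The values deposited by the authors are linear intensities, and the submitters' processing notes name MAS5, of a version not given in the sources used here. In addition the study's methods name RMA quantile normalization, scaling to an average of 150 and a floor of 30. None of these steps is visible in the deposited values (array means run from 149.1 to 205.4). The average and the floor were therefore applied here, and quantile normalization was an alternative.

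Gene symbols came from the annotation of the platform, and the 41091 probe sets with 1 symbol were used. Log2 ratios of all probe sets of a gene were averaged, and probe sets under the floor on both arrays count as 0. The brightest probe set is the one with the highest mean. Genes above the floor in at least 1 array were counted. Signals of different probe sets are not comparable as levels. The shared effect was fitted with limma (lmFit and eBayes) on genes that exceeded the floor on 3 or more arrays, with time as a block, Benjamini-Hochberg adjustment and a threshold of 0.05. Precision is limited by having 6 arrays.

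Members and lists were chosen with earlier results of these data known. Named genes are the core subunits of complex I, complex II, the core proteins of complex III, the head and c ring of ATP synthase, isoform pairs, the 4 highest and 4 lowest members at each time, the 5 smallest p and every member called. Other genes were named after their values were seen. Alternatives were quantile normalization, centred ratios, no floor, a floor of 60, the brightest probe set, the median over probe sets, only probe sets above the floor, no probe sets ending in _s_at or _x_at, and all 3 vehicle arrays averaged as reference. For limma they were quantile normalization, centred arrays, no block, a variance trend, no filter, the brightest probe set, leaving out each time and an unadjusted p. The reference of the other 2 vehicle arrays was added after seeing the data. Promoters were from RefSeq on GRCh38.p14. The steps were tested on simulated data. Versions were limma 3.58.1 in R 4.3.3, and pandas 2.3.3, numpy 2.4.6 and matplotlib 3.10.9 in Python 3.11.15.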

Additional observations from a re-analysis of the deposited data

Results flagged for a closer look

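The median log2 ratio of the members was 0.29 higher at 8 hours than at 2 hours, and -0.26 when that of 8 hours was taken from that of 24 hours. NDUFA5 had a gene ratio at 8 hours that differed by -0.87 from that at 24 hours, with HGF below vehicle at 8 hours and above it at 24 hours. In each case the direction of HGF over vehicle differed between times, and with 1 array per condition the difference was not tested. The vehicle array of 8 hours enters all of these values.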

How the results depend on the processing

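With 1 array per condition no sample can be left out within a time point, and every ratio rests on 2 arrays. Pairing by time entered only through the block of limma, and without it 0 members passed the adjusted threshold too. Without a floor, probe sets near background entered and members passed the rule at each time, 4 higher and 6 lower at 2 hours, 4 higher and 11 lower at 8 hours, and 5 higher and 4 lower at 24 hours. The share of all genes that passed without a floor was not counted. At 8 hours 2 members were higher under quantile normalization and 1, NDUFA13, under centred ratios. Without probe sets ending in _s_at or _x_at the median of the 58 members left was 0 at 8 hours, and 2 were lower, NDUFA5 and SDHC. Several of these members, such as ATP5F1A, ATP5MC2 and NDUFB4, kept only probe sets under the floor in every array, so their ratio was fixed at 0. This median therefore cannot show whether the shift at 8 hours holds without those probe sets. With the other 2 vehicle arrays as reference, the median at 8 hours was 0.053 and 0 members were lower, and the median at 24 hours was 0.11. The remaining 93 values of these comparisons kept their count or moved by less than the spread of the members' median over the vehicle arrays (SD 0.14). That spread was larger in size than the medians at 2 and 24 hours, so a change of sign there could stay within it. With all 3 vehicle arrays averaged as reference, the median at 8 hours fell from 0.22 to 0.11. At 24 hours it changed sign, from -0.04 to 0.07. Of the ratios of named genes under the alternatives, 190 moved by less than the gene's own SD over the vehicle arrays, 43 by more. In 12 of these 233 values the sign changed, 5 of them with the other 2 vehicle arrays as reference, and 0 of the 12 had passed the rule. Under each limma alternative run 0 members passed the adjusted threshold, leaving out each time in turn included. At an unadjusted p under 0.05 in limma, 3 of 70 members were lower without the arrays of 8 hours, against 377 of all 10002 genes. Without the block 1 member was higher, against 304 of the 10002 genes. Without the filter 1 of 77 members was higher and 4 were lower, against 305 and 204 of all 19775 genes.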
